A study of Rattus norvegicus with 12 samples.

Results

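The miR-183, miR-96 and miR-182 cluster is a group of miRNAs that are made from one primary transcript. Its members were chosen by name, as the listed rows of miR-183, miR-96 and miR-182 with both arms where listed, which gave 5 of the 753 mature miRNAs in each file (rno-miR-183-5p, rno-miR-183-3p, rno-miR-96-5p, rno-miR-96-3p and rno-miR-182, written below without the rat prefix). Small RNA was sequenced from the right hippocampus (described as dorsal hippocampus in the series title) of 12 adult male Sprague Dawley rats between P70 and P80, with 1 library per rat. A total of 8 rats were injected with ethanol at 4 g/kg and 4 rats, labelled Veh, received vehicle, and all were euthanized 3 h later. The wider study describes 8 rats per group, and the other vehicle rats were not analysed here. Each rat is called by its treatment and the number in its title.

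Primary transcripts of such clusters are cut into hairpins, each hairpin gives a short duplex, and one strand of the duplex (the guide arm) is kept in the silencing complex while the other (the passenger arm) is mostly degraded. The complex finds mRNAs through bases 2 to 8 of the miRNA, called the seed. The miR-183 cluster is known for its high expression in sensory cells, such as photoreceptors and the hair cells of the inner ear, and mutations in the miR-96 seed cause progressive hearing loss. In the hippocampus the cluster has been linked to memory formation through protein phosphatase 1. Foxo1 and Foxo3, transcription factors of stress and survival signaling, are known targets of miR-182 and miR-96, and Itgb1, an integrin, is a known target of miR-183.

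The mature sequences from RefSeq, which held all 5 members, show how closely the guide arms resemble each other. Seeds are in capitals, and sequences are written 5′ to 3′.
miR-183-5p: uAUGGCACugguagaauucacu
miR-96-5p: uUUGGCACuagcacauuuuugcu
miR-182: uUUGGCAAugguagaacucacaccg
Counting from 1 at the 5′ end and without gaps, miR-182 matched miR-183-5p at 18 of 22 positions, and the seed differences were A2U and C8A (base of miR-183-5p, position, base of miR-182). The seed of miR-96-5p differed from that of miR-183-5p by A2U and from that of miR-182 by C8A. Therefore miR-96-5p and miR-182 shared bases 2 to 7. Among 693 mature rat miRNAs of the RefSeq table, no further miRNA shared bases 2 to 7 with any guide arm. Of the 753 listed names, 688 were in this table, and the seeds of the others were not compared. The counts of all 5 members were whole numbers in all 12 libraries, so no fractional read was divided between them.

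In the rat assembly GRCr8 the hairpins lie on the minus strand of chromosome 4, in the order Mir183 (chr4:59756044-59756153), Mir96 (chr4:59755841-59755946) and Mir182 (chr4:59752246-59752307). A gap of 97 bases separates Mir183 from Mir96, and 3533 bases separate Mir96 from Mir182. Nrf1 and Ube2h are the flanking protein-coding genes. The deposited counts carry no coordinates, and the submitters' notes name an older build (rn5), so these positions describe the RefSeq entries and not the alignment. The hairpins of miR-183 and miR-96 are shown because reads came almost entirely from one of their arms, with the listed mature arms in capitals, the 5p arm first.
Mir183: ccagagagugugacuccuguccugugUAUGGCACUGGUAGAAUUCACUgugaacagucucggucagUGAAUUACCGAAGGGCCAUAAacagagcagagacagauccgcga
Mir96: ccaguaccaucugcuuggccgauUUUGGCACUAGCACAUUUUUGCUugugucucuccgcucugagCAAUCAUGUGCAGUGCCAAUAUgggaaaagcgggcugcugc
Over all 12 libraries, 3217 reads were counted for miR-183-5p and 1 read for miR-183-3p. The 3p arm therefore held 0.0311% of 3218 reads (exact Clopper-Pearson 95% interval 0.000787% to 0.173%), and this read came from vehicle rat 9. For miR-96, 122 reads were counted for the 5p arm and 0 for the 3p arm. The exact Clopper-Pearson 95% interval of this 3p share ran from 0% to 2.98%. A single arm, named miR-182, is listed for the third hairpin. RefSeq also places a miRNA on the opposite strand of Mir183, miR-3553, whose sequence is complementary to all 22 bases of miR-183-5p, and it had 0 reads in all 12 libraries.

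Library totals ranged from 1960704 to 4917928 counts, and a floor of 3 counts equals 0.631 to 1.57 CPM depending on the library. CPM is the count relative to the library total after TMM scaling, set to 1e+06 per library, and the floor covers counting error only. Neuronal miRNAs were present throughout, with a summed level of miR-124-3p, miR-9a-5p, miR-128-3p and miR-138-5p between 30040 and 38210 CPM, alongside choroid plexus miRNAs at 16520 to 70890 CPM and muscle miRNAs at 112 to 1765 CPM. Since whole tissue was sequenced, more cells of a type and more miRNA per cell cannot be told apart. Nothing in the labels says which libraries were prepared or sequenced together, so batches were not compared.

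The 3 guide arms passed the filter on rarely read miRNAs, which retained 420 miRNAs, and both passenger arms did not. The guide arms differed widely in level, with miR-182 above miR-183-5p and miR-183-5p above miR-96-5p in 12 of 12 libraries. How efficiently each sequence enters a library was not measured, so this order is one of reads. Each read covers a whole mature miRNA, so levels were not divided by length. miR-182 had between 451 and 4292 reads per library and ranked 112 of 753 by mean CPM. miR-183-5p had between 54 and 1066 reads and ranked 189. miR-96-5p had between 0 and 44 reads, with at least 10 reads in 5 of 12 libraries, and ranked 397. Together they made up between 0.0171% and 0.121% of the counts of a library.

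In vehicle rats 9, 10, 19 and 20, rno-miR-183-5p was 43.3, 23.8, 24.8 and 226.8 CPM. In the 8 ethanol rats it was 16.5 CPM at the lowest (rat 15), 64.4 at the median and 251.1 at the highest (rat 3). Vehicle rat 20 lay far above the other vehicle rats and inside the range of the ethanol rats, so the groups overlapped over most of their range. The highest library was 15.2-fold above the lowest.

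miR-182 varied at a higher level and over a narrower range. Its level (rno-miR-182) was 439, 192, 363 and 913 CPM in vehicle rats 9, 10, 19 and 20, and 152 CPM at the lowest (rat 15), 519 at the median and 928 at the highest (rat 8) in ethanol rats. Its highest library was 6.12-fold above its lowest. Levels of rno-miR-96-5p were 2.31, 0.851, 0.421 and 9.36 CPM in vehicle rats 9, 10, 19 and 20, and 0 at the lowest (rats 7 and 23), 2.30 at the median and 10.2 at the highest (rat 3) in ethanol rats. In 6 libraries miR-96-5p had 3 reads or fewer, at or below the floor. The 5 libraries with the highest level were the same for miR-183-5p, miR-182 and miR-96-5p, namely vehicle rat 20 and ethanol rats 3, 4, 8 and 16.

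**Figure D1:**
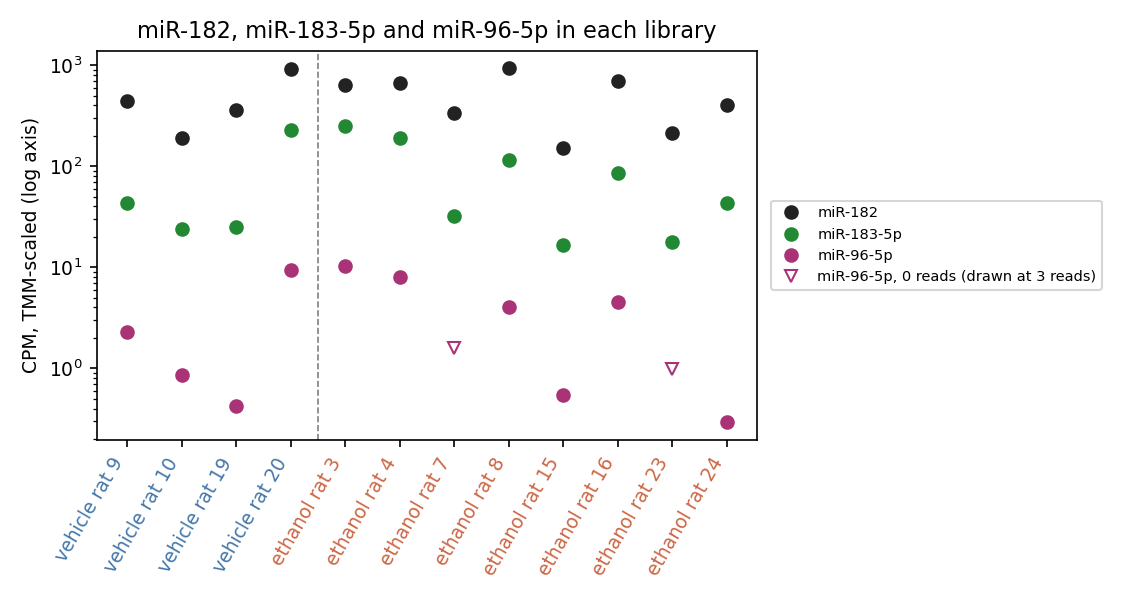
Levels of miR-182 (black), miR-183-5p (green) and miR-96-5p (purple) in each library, in TMM-scaled CPM on a log axis. Points are single rats, the dashed line separates 4 vehicle rats (left, blue labels) from 8 ethanol rats (right, orange labels), and open triangles mark libraries with 0 reads, drawn at the level of 3 reads. All 3 series are highest in vehicle rat 20 and ethanol rats 3, 4, 8 and 16.

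To determine whether ethanol altered the cluster, ethanol was compared with vehicle across all retained miRNAs. No difference between groups was called for any of the 3 guide arms. Vehicle rats had a mean of 79.7 ± 98.5 CPM of miR-183-5p (SD, n = 4), and the mean of ethanol rats was 94.3 ± 87.2 CPM (SD, n = 8). Its log2 fold change was 0.22, with a 95% interval from -1.52 to 1.96 and an adjusted p of 0.997 (quasi-likelihood test of edgeR, adjusted by the Benjamini-Hochberg method across 420 miRNAs). For miR-182 the means were 477 ± 309 CPM (SD, n = 4) in vehicle and 504 ± 269 (SD, n = 8) in ethanol rats, and the log2 fold change was 0.08 (interval -0.95 to 1.10, adjusted p = 0.997 in edgeR). For miR-96-5p they were 3.24 ± 4.16 CPM (SD, n = 4) in vehicle and 3.47 ± 3.98 (SD, n = 8) in ethanol rats, with a log2 fold change of -0.13 (interval -2.15 to 1.89, adjusted p = 0.997 in edgeR). This sign runs against the mean CPM and follows the mean log2 CPM, which was 1.40 in vehicle and 1.27 in ethanol rats. Two-sided exact permutation tests of log2 CPM over all 495 splits into 4 and 8 gave p = 0.745 for miR-183-5p, p = 0.895 for miR-182 and p = 0.877 for miR-96-5p.

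These intervals are wide, and they run from a fold of 0.518 to 2.15 for miR-182 and from 0.350 to 3.89 for miR-183-5p. So 0 of the 3 guide arms passed, and the same test called 0 of 420 miRNAs (0%) at an adjusted p under 0.05 and 17 (4.05%) at a raw p under 0.05, of which 7 (1.67%) were higher and 10 (2.38%) lower after ethanol. None of the 3 was among those 17, and they ranked 323, 362 and 374 by raw p (miR-183-5p, miR-182 and miR-96-5p). DESeq2's Wald test called 1 miRNA, miR-133b-3p, which is outside the cluster.

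Single rats decided the direction of these small differences. Without vehicle rat 20 the log2 fold changes were 1.61 for miR-183-5p (95% interval -0.24 to 3.46), 0.59 for miR-182 and 1.49 for miR-96-5p, and the adjusted p of all 3 rounded to 1 in edgeR's test. The difference in miR-183-5p turned negative without vehicle rat 10 (-0.070), vehicle rat 19 (-0.076), ethanol rat 3 (-0.11) or ethanol rat 4 (-0.0066). That in miR-182 turned negative without vehicle rat 10 (-0.18), vehicle rat 19 (-0.045), ethanol rat 8 (-0.094) or ethanol rat 16 (-0.0083). That in miR-96-5p turned positive without ethanol rats 7 (0.026), 15 (0.058), 23 (0.087) or 24 (0.070) as well. No direction can be given for the cluster after ethanol.

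**Figure D2:**
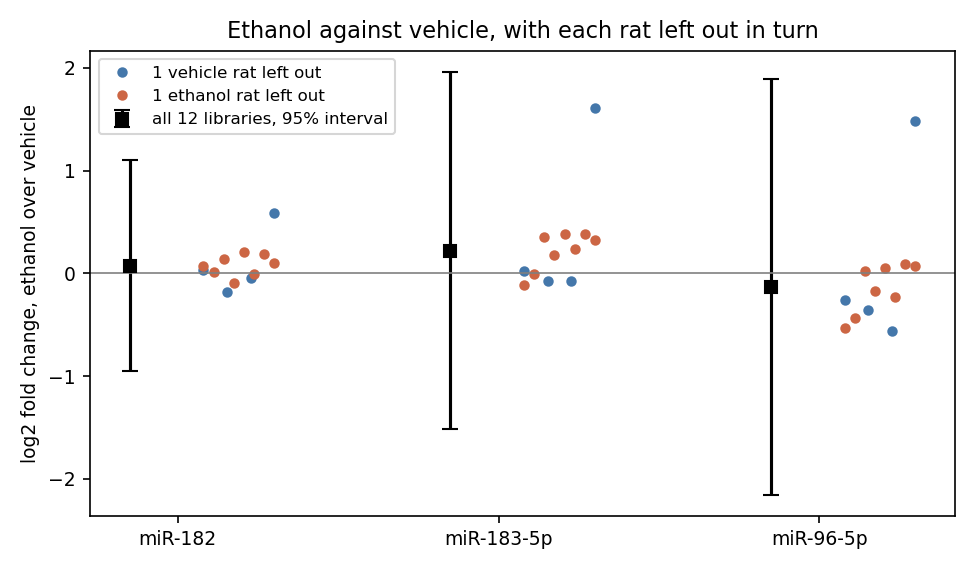
Log2 fold change of each guide arm, ethanol over vehicle, from edgeR. Black squares with bars show all 12 libraries with the 95% interval, and dots show the value with 1 vehicle rat (blue) or 1 ethanol rat (orange) left out. All 3 intervals span 0, and the highest dot of each miRNA is the fit without vehicle rat 20 (1.61 for miR-183-5p, 1.49 for miR-96-5p and 0.59 for miR-182).

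Differences between rats within a group were large. The SD of log2 CPM over the 12 libraries was 1.43 for miR-183-5p, 1.55 for miR-96-5p and 0.87 for miR-182, against a median of 0.24 over all 420 retained miRNAs. By this SD they ranked 7, 5 and 15 of 420. Centering on group means left ranks of 4, 2 and 15, so the spread lay within the groups. For miR-96-5p both ranks depend in part on the prior count of 2 used for log2 CPM. This count sets its value in ethanol rats 7 and 23, which had 0 reads. Among the 113 miRNAs with a mean log2 CPM at or above that of miR-182, miR-182 had the highest SD, and the median of those 113 was 0.15.

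Counting error accounts for a small part of the spread of the well-read members. From the read numbers alone, an SD of 0.13 on the log2 scale would be expected for miR-183-5p and 0.045 for miR-182. For miR-96-5p that value was 0.65, a larger part of its observed SD, but the approximation behind it runs high at the lowest counts. No relation between depth and level passed its test. Pearson's r between the log2 library total and log2 CPM was -0.19 for miR-183-5p (permutation p = 0.538), -0.12 for miR-96-5p (p = 0.71) and -0.024 for miR-182 (p = 0.938; n = 12 libraries). Spearman's rho was -0.27, -0.16 and -0.049 for the same relations (permutation p = 0.402, 0.621 and 0.884). Adjusted over the 6 relations computed, these p-values were 0.807, 0.852 and 0.938 for r and 0.603, 0.745 and 0.884 for rho. Without vehicle rats 19 and 20, whose totals lay farthest from the median, r was -0.45, -0.31 and -0.30. Among the 8 ethanol rats alone it was -0.58, -0.39 and -0.50 (exact permutation p = 0.131, 0.326 and 0.21).

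**Figure D3:**
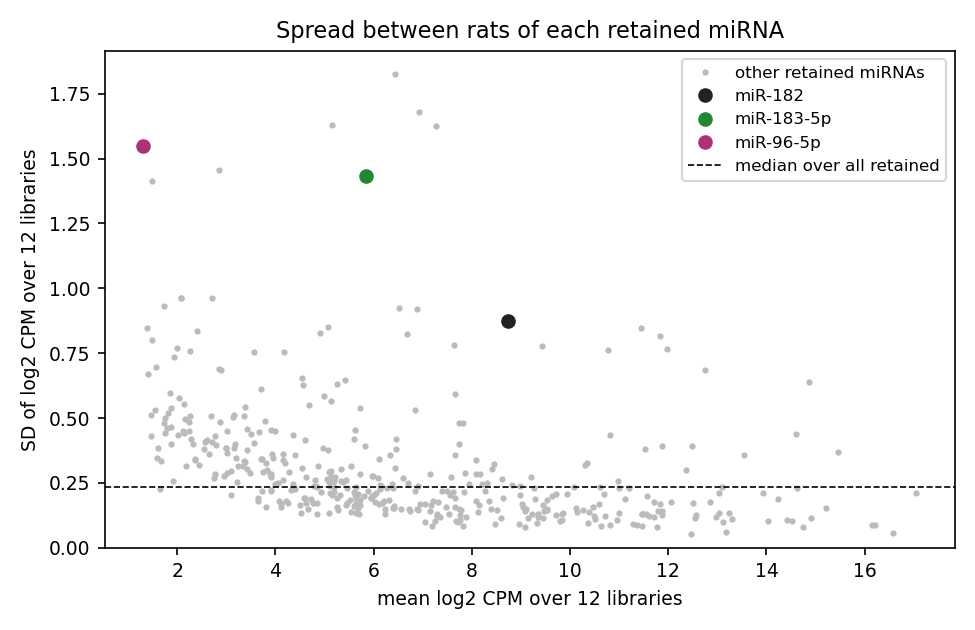
Spread between rats against level for the 420 retained miRNAs, with the mean log2 CPM over 12 libraries on the x axis and the SD of log2 CPM on the y axis. Grey dots are single miRNAs and the dashed line is the median SD (0.24); miR-96-5p (1.55), miR-183-5p (1.43) and miR-182 (0.87) lie far above it at low, middle and higher levels.

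To assess whether members of the same transcript varied together, log2 CPM was correlated across the 12 libraries. All 3 pairs were positively related over the 12 libraries. For miR-183-5p with miR-96-5p, Pearson's r was 0.93 (permutation p = 7e-05, adjusted p = 0.00039 over 6 relations) and Spearman's rho was 0.83 (permutation p = 0.00157, adjusted p = 0.00471). For miR-183-5p with miR-182, r was 0.89 (permutation p = 0.00013, adjusted p = 0.00039) and rho was 0.88 (permutation p = 0.00034, adjusted p = 0.00204). The pair of miR-182 with miR-96-5p was looser, with r of 0.79 (permutation p = 0.00349, adjusted p = 0.00698) and rho of 0.70 (permutation p = 0.013, adjusted p = 0.026).

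No library had a level of miR-183-5p between 43.3 and 86.0 CPM, so the relations were also computed within the 7 libraries below this gap, a choice made after the values were seen. There the relation of miR-183-5p with miR-182 passed its test (r = 0.88, exact permutation p = 0.0127). Those of miR-96-5p did not pass, with r of 0.37 to miR-183-5p (exact permutation p = 0.44) and 0.20 to miR-182 (exact permutation p = 0.686), and miR-96-5p had between 0 and 7 reads in these libraries. A narrower range of miR-183-5p can lower r, and whether it did so for miR-96-5p was not tested. The 5 libraries above the gap are too few for a value of their own.

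The relations did not rest on the 2 most extreme rats or on the groups. Without ethanol rat 3 and vehicle rat 20, which lay farthest from the median of miR-183-5p, r was 0.88 with miR-96-5p and 0.91 with miR-182. Without ethanol rats 8 and 15, r between miR-182 and miR-96-5p was 0.84. Among the 8 ethanol rats alone, r was 0.93 for miR-183-5p with miR-96-5p, 0.89 for miR-183-5p with miR-182 and 0.78 for miR-182 with miR-96-5p (exact permutation p = 0.00337, 0.00404 and 0.0288). The 4 vehicle rats are too few for a value of their own. As a description, 0.813% of the 87990 pairs of retained miRNAs had an r of at least 0.79, and the median r over all pairs was -0.0052. A close relation to miR-182 was not particular to the cluster. Outside it, miR-483-3p, miR-339-3p and miR-451-5p had an r with miR-182 of 0.90, 0.89 and 0.84, against 0.79 for miR-96-5p. Their r was 0.84, 0.75 and 0.80 with miR-183-5p and 0.68, 0.65 and 0.77 with miR-96-5p.

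**Figure D4:**
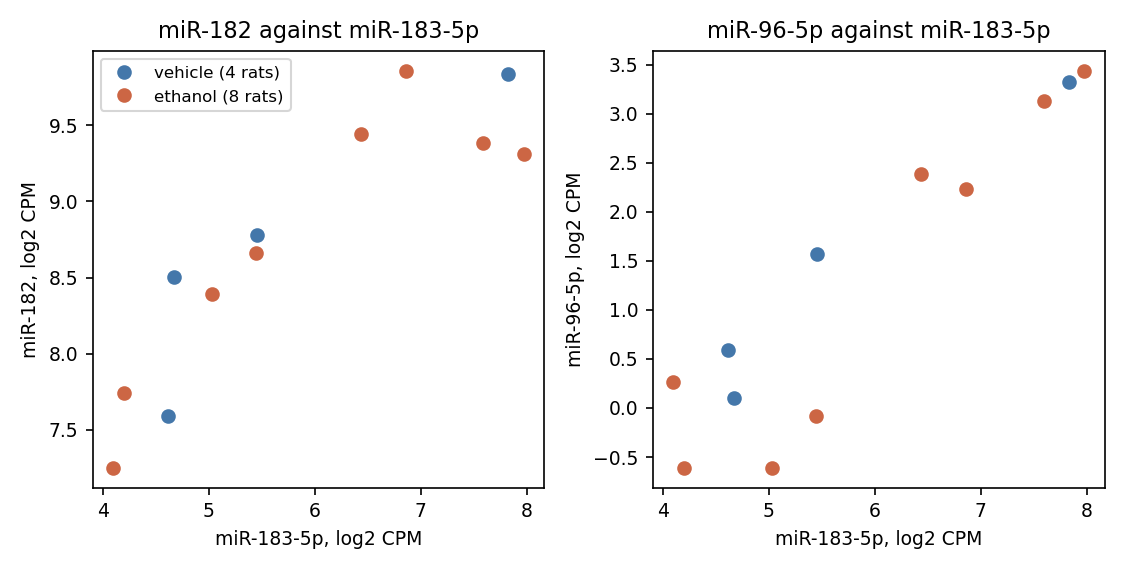
Log2 CPM of miR-182 (left) and miR-96-5p (right) on the y axes against log2 CPM of miR-183-5p on the x axes. Each point is 1 rat (4 vehicle in blue, 8 ethanol in orange). Points rise together in each panel (r of 0.89 and 0.93), and below the gap on the x axis r is 0.88 in the left and 0.37 in the right panel (7 rats).

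The proportion of miR-182 to miR-183-5p differed between libraries by more than counting error. In vehicle rats 9, 10, 19 and 20, the ratio of miR-182 to miR-183-5p reads was 10.1, 7.99, 14.6 and 4.03 (0.5 added to each count). In ethanol rats it ran from 2.52 (rat 3) to 11.9 (rat 23). Vehicle rat 20 and ethanol rats 3 and 4 had the lowest ratios, and the groups overlapped. Over the 12 libraries the log2 ratio had an SD of 0.77, which was 5.42 times the 0.14 expected from read numbers alone. Differences between animals and between library preparations both enter this SD and cannot be told apart. Ratios within a library do not depend on scaling. Of the summed reads of miR-183-5p and miR-182, miR-183-5p made up 28.4% in ethanol rat 3 (Wilson 95% interval 26.4% to 30.4%), 22.3% in ethanol rat 4 (20.6% to 24.2%) and 19.9% in vehicle rat 20 (18.85% to 20.99%). In the other 9 libraries its share was lower, from 6.40% in vehicle rat 19 (5.37% to 7.61%) to 11.1% in ethanol rat 8 (9.93% to 12.4%). Ethanol rat 8, with the highest level of miR-182, had a ratio of 8.01.

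For miR-96-5p and miR-183-5p, no difference in ratio between libraries was detectable at this depth. Over all libraries miR-96-5p made up 3.65% of the reads of these miRNAs, and the Wilson interval of each of the 12 libraries held this value. The SD of their log2 ratio was 1.04, against 1.05 estimated from the observed read numbers. Ethanol rats 7 and 23, with 0 reads of miR-96-5p, raise both values through the 0.5 added to each count. The closeness of these SDs is therefore partly built in, and no conclusion is drawn from it. The Wilson intervals were wide, reaching from 0.951% to 11.7% in vehicle rat 10. With so few reads of miR-96-5p, this does not set the pair apart from miR-182 and miR-183-5p. None of the 12 intervals for miR-183-5p against miR-182 held the pooled share of 15%, to which vehicle rat 20 alone gave 1066 of 3217 reads of miR-183-5p, while 7 of 12 held the median share over libraries of 10.4%. For miR-96-5p against miR-182, 5 of 12 intervals held the pooled share of 0.665%.

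The difference in these proportions between ethanol and vehicle rats was within the spread between rats. In vehicle rats the log2 ratio of miR-182 to miR-183-5p was 3.05 ± 0.78 (SD, n = 4), compared with 2.82 ± 0.80 (SD, n = 8) after ethanol (two-sided exact permutation p = 0.606). For miR-96-5p to miR-183-5p it was -4.70 ± 0.61 (SD, n = 4) and -5.38 ± 1.17 (SD, n = 8; exact permutation p = 0.337). For miR-182 to miR-96-5p it was 7.75 ± 1.20 (SD, n = 4) and 8.19 ± 1.76 (SD, n = 8; exact permutation p = 0.659). The smallest p that 4 rats against 8 allow is 0.00202.

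**Figure D5:**
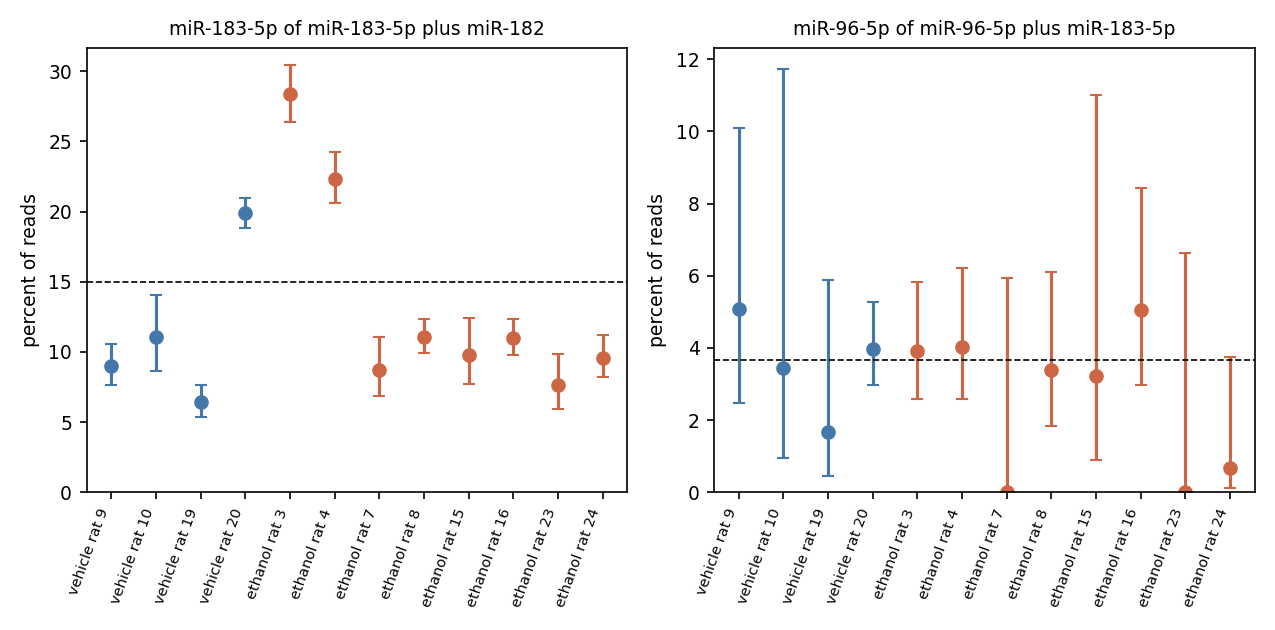
Share of reads within pairs of cluster members in each library, in percent, with miR-183-5p of miR-183-5p plus miR-182 on the left and miR-96-5p of miR-96-5p plus miR-183-5p on the right. Bars are Wilson 95% intervals for counting error, dashed lines are the pooled shares (15% and 3.65%), and colors mark vehicle (blue) and ethanol (orange) rats. On the left, ethanol rats 3 and 4 and vehicle rat 20 lie above the line and 9 rats below it, and on the right all 12 bars cross the line.

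Other miRNAs whose level followed the cluster were ranked by the mean of their Pearson's r with the 3 guide arms over 12 libraries, as a description. Among the 417 retained miRNAs outside the cluster this mean ran from -0.78 to 0.81 with a median of -0.045. The 5 highest were miR-483-3p (0.81), which lies within the Igf2 gene, miR-451-5p (0.80) and miR-144-3p (0.78), which share a transcript of the red blood cell lineage, miR-199a-5p (0.77), typical of mesenchymal and vascular cells, and miR-339-3p (0.77). The level of miR-451-5p ranged from 33.0 CPM in ethanol rat 15 to 205 CPM in ethanol rat 3, a 6.23-fold range. miR-483-3p had between 9 and 45 reads per library, from 2.47 CPM in ethanol rat 15 to 15.0 CPM in ethanol rat 8. The range of miR-339-3p was only 1.55-fold. None of the 5 passed the test of ethanol against vehicle (adjusted p from 0.971 to 1.00 in edgeR's test). All these values come from the same 12 libraries and share their scaling and depth.

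Marker lists of other cells are given beside the cluster. Of 5 miRNAs of blood cells, 4 were listed (miR-451-5p, miR-144-3p, miR-144-5p and miR-223-3p) and had reads in every library, and their summed level ranged from 138.7 to 237.7 CPM in vehicle rats and from 64.0 to 316.9 CPM in ethanol rats. Their mean log2 CPM followed miR-183-5p (r = 0.79), miR-96-5p (r = 0.75) and miR-182 (r = 0.80). The endothelial arms miR-126a-3p and miR-126a-5p did so too (r = 0.73, 0.65 and 0.71), at 2436 to 2913 CPM in vehicle rats and 2207 to 2972 CPM in ethanol rats. The part of these cells in the spread of the cluster was not tested.

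Choroid plexus miRNAs (4 of 4 listed), at 28980 to 50270 CPM in vehicle rats and 16520 to 70890 CPM in ethanol rats, followed miR-182 (r = 0.63) more closely than miR-183-5p (r = 0.27) or miR-96-5p (r = 0.17), a difference that was not tested. Ethanol rat 3, with the highest miR-183-5p, had the lowest choroid plexus level (16520 CPM). Ethanol rat 8, with the highest miR-182, had the highest (70890 CPM), and ethanol rat 15, with the lowest miR-182 and miR-183-5p, had 17580 CPM. For miRNAs of ciliated cells (6 of 6 listed), at 4361 to 8932 CPM in vehicle rats and 1960 to 12130 CPM in ethanol rats, r was 0.55 with miR-182, 0.18 with miR-183-5p and 0.12 with miR-96-5p. The epithelial miR-200 family (5 of 5 listed), was low, with 1 of 5 retained (miR-141-3p) and a summed level of 19.5 to 37.0 CPM in vehicle rats and 13.7 to 27.8 CPM in ethanol rats, and its retained member had an r of 0.47 with miR-182, 0.25 with miR-183-5p and 0.08 with miR-96-5p. Muscle miRNAs (r from 0.33 to 0.54), miRNAs of the Hox loci (0.26 to 0.43), neuronal miRNAs (-0.63 to -0.45) and oligodendrocyte miRNAs (-0.44 to -0.41) are given as the range over the 3 guide arms. The part of these cells in the level of the cluster was not tested either.

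Other miRNA clusters made from one transcript gave mixed values of the same measure. For miR-221-3p with miR-222-3p r was 0.89, and for miR-132-3p with miR-212-3p it was 0.69. Between miR-379-5p and miR-411-5p r was -0.16, and among miR-17-5p, miR-20a-5p and miR-92a-3p it ranged from -0.52 to 0.59. The level of miR-20a-5p was low, with means of 3.13 CPM in vehicle and 3.25 CPM in ethanol rats. Reads could not be traced to a locus, so a mature miRNA also made outside its named cluster would not be told apart. The miR-200a, miR-200b and miR-429 cluster had 0 of 3 members retained. SDs of log2 CPM of the retained members of these clusters lay between 0.15 and 0.93, with the highest for miR-20a-5p, against 0.87 to 1.55 in the miR-183 cluster. None of the 9 retained members passed the test of ethanol against vehicle (0 with an adjusted or raw p under 0.05 in edgeR's test).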

How the data were processed

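Small RNA from the hippocampus of 12 rats (4 vehicle, 8 ethanol, grouped by sample title) was analysed. The expected counts (estimated counts per mature miRNA) were deposited by the authors without scaling. The submitters' processing notes name cutadapt, Partek and the build rn5; versions, the counting method and the miRNA annotation are not given in the sources used here. Counts were rounded to whole numbers. Rarely read miRNAs (under 10 reads in at least 10 of the libraries) were removed, after the paper's filter. Analyses used R 4.3.3, edgeR 4.0.16 (TMM scaling, quasi-likelihood test, Benjamini-Hochberg adjustment, threshold 0.05), limma 3.58.1 and DESeq2 1.42.0. The paper's methods describe scaling to the median per group, mean centering and a two-sample comparison; the alternative run here scaled each library to its own median, so it is not the same step. Log2 CPM used a prior count of 2 and log2 ratios a pseudocount of 0.5. Correlations used 100000 permutations, or all permutations for fewer than 10 libraries. The edgeR steps were tested on simulated data. Wilson and Clopper-Pearson intervals of read shares cover counting error only, while the edgeR intervals of log2 fold changes include the spread between rats. Members, marker lists and other clusters were chosen with earlier results of these data known. Named miRNAs were the members, miRNAs sharing a seed, the 5 with the highest mean r, and those lists; miR-133b-3p, miR-133a-3p, miR-1b and miR-3553 were named after their values were seen. Sequences and the order of hairpins are from RefSeq (GRCr8). P-values measure the spread between these rats; which of them share a litter is not given.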

Additional observations from a re-analysis of the deposited data

How the results depend on the processing

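Alternatives for ethanol against vehicle covered scaling (RLE, library totals, upper quartile), filters, DESeq2, limma-trend, a two-sample comparison after library median scaling, exact permutation, down-sampled counts, the library total as a covariate and each rat left out. None of them called a guide arm. DESeq2 called 1 miRNA (miR-133b-3p), and leaving out each rat gave 0 to 3 (3 without ethanol rat 16: miR-1b, miR-133b-3p and miR-133a-3p). The log2 fold change of miR-183-5p reversed to -0.27 with the library total as a covariate, and that of miR-96-5p to 0.096 with DESeq2 and 0.17 with down-sampled counts; the cause was not tested. With each rat left out, log2 fold changes ranged from -0.11 to 1.61 (miR-183-5p), from -0.18 to 0.59 (miR-182) and from -0.56 to 1.49 (miR-96-5p). The difference in log2 ratio of miR-182 to miR-183-5p ranged from -0.58 to 0.034, reversing without vehicle rat 19. miR-96-5p could not be tested with at least 10 reads in at least 10 libraries, which it does not reach. The 3 correlations kept their direction and a permutation p under 0.05 in the 8 other settings tried and with each rat left out, with r from 0.75 to 0.95. In the 7 libraries below the gap in miR-183-5p (chosen after seeing the data), r was 0.37 for miR-183-5p with miR-96-5p and 0.20 for miR-182 with miR-96-5p, and neither passed, in fewer libraries and over a narrower range. No paired analysis was possible because vehicle and ethanol rats share no animal numbers. Few reads of miR-96-5p limit its values.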
